A study of Mus musculus with 10 samples.

Results

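Transcripts of classical cadherins and of the catenins that bind them were examined in OP9 cells, a stromal line from mouse calvaria that is used to support blood stem cell development in culture. The genes were chosen by symbol and are 10 of the 26888 genes listed for each library: the cadherins *Cdh2*, *Cdh3*, *Cdh4*, *Cdh6*, *Cdh10*, *Cdh11* and *Cdh13*, and the catenins *Ctnna1*, *Ctnnb1* and *Ctnnd1*. Classical cadherins are transmembrane proteins that join neighboring cells by calcium-dependent contacts between their extracellular domains. Inside the cell their tails bind β-catenin and p120-catenin, and α-catenin links the complex to actin. β-Catenin that is not bound at the membrane is also the transcriptional effector of Wnt signaling. *Cdh13* encodes T-cadherin, which is held in the membrane by a lipid anchor and lacks the tail that binds catenins.

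RNA-seq covered 6 OP9 reaggregates, kept for 48 h at the liquid-gas interface on filters, and 4 flat cultures grown submersed. The line carries the *op/op* genotype on a mixed C57BL/6 and C3H background. Of the reaggregates, numbers 2, 4 and 6 received IL-3, at a dose labelled as 200 µg/µl, and numbers 1, 3 and 5 did not. Flat cultures 2 and 4 are labelled as cells of the de Bruijn laboratory, flat cultures 1 and 3 carry no laboratory name, and the source of the reaggregated cells is not labelled. Because flat cultures came from more than a single source, culture form and source of cells cannot be told apart. The changes of *Cdh2*, *Cdh11*, *Cdh13*, *Ctnnb1* and *Ctnnd1* are given against both kinds of flat culture, and those of other genes only in part. Values are in RPM, the reads on a gene after every library was scaled to the same total on genes. Depth was read from the most frequent nonzero RPM of each library, which stands for 1 read, and ran from 7350000 to 9430000 assigned reads, the median library having 8370000. A floor of 3 reads, which allows for counting error alone, equals 0.318 to 0.408 RPM.

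Some libraries stood closer together than others. Reaggregates 1 and 2, 3 and 4, and 5 and 6 each hold a library labelled without and a library labelled with IL-3, and the largest difference in any expressed cadherin or catenin was between 1.07-fold and 1.1-fold within these 3 pairs. It was between 1.29-fold and 1.57-fold in the 12 other pairs of reaggregates. Over all genes with at least 10 reads in a pair of libraries, the mean chi-square per gene, about 1 for counting noise alone, was between 1.69 and 4.42 within the 3 pairs and between 17.6 and 52.7 in the 12 others. The median chi-square was between 0.553 and 0.964 within the 3 pairs and between 2.34 and 6.54 in the others. The libraries of a pair carry different IL-3 labels and were entered as separate libraries, and whether they are separate cultures cannot be told from these values. The p-values, those of the exact permutation test included, treat them as independent, which the labels do not establish. Adjusted p with each pair averaged are given for the cadherins and catenins and for the genes named from lists.

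The cell type label was compared with marker genes. In whole reads, 8 of 9 stromal markers exceeded the floor of 3 reads in at least 1 library, led by *Col1a2*, and *Thy1* did not. All 5 epithelial markers were at or under the floor in every library, with *Epcam* and *Krt18* listed at 0. Of 5 endothelial markers 1 exceeded it, *Pecam1* at up to 0.716 RPM, and their sum was between 0.00192 and 1.09 RPM in reaggregates and between 0.116 and 0.723 RPM in flat cultures. Of 5 markers of blood cells 4 were found and 3 exceeded the floor, while *Ptprc*, the common marker, was listed at 0. Their sum was between 14 and 26.6 RPM in reaggregates and was 8.61, 9.38, 20.2 and 6.88 RPM in flat cultures 1 to 4. The most abundant of them was *Itga2b*, which averaged 17.3 ± 5.62 RPM (SD, n = 6) and 5.59 ± 4.69 RPM (SD, n = 4), with a limma adjusted p of 0.01846 that became 0.1259 with consecutive reaggregates averaged. The others above the floor, *Cd68* and *Itgam*, changed by 0.09 and −0.2 on the log2 scale. Neither passed, with or without averaging, so the difference in the sum is mainly that of *Itga2b*. The summed level of the 9 stromal markers was between 16500 and 24600 RPM in reaggregates and between 6050 and 12900 RPM in flat cultures. Of the 8 stromal markers tested 6 passed as higher in reaggregates and 0 as lower (limma), and 2 as higher with consecutive reaggregates averaged, where over all genes 13.6% were higher and 15.7% lower, and 1.99% and 2.68% with averaging. *Cxcl12* was at 4560 and 3990 RPM in flat cultures 2 and 4, a large part of their sum, and at 125 and 662 RPM in flat cultures 1 and 3. The summed level of 4 adipocyte markers, with *Fabp4* the most abundant, was between 61 and 92.3 RPM in reaggregates, 80.7 and 106 RPM in flat cultures 1 and 3, and 832 and 1010 RPM in flat cultures 2 and 4. Of 4 neural markers 3 exceeded the floor, with *Sox10* listed at 0. Their sum, led by *Tubb3*, was between 14.9 and 29.4 RPM in reaggregates, 96.1 and 70.2 RPM in flat cultures 1 and 3, and 9.2 and 8.88 RPM in flat cultures 2 and 4. Of 5 osteoblast markers 4 were found by these symbols and exceeded the floor, led by *Runx2*, with a sum between 55.3 and 107 RPM in reaggregates and between 37.9 and 76.2 RPM in flat cultures. Of 4 skeletal muscle markers 2 were found and 1 exceeded the floor, *Cdh15*, and their sum was at most 0.868 RPM. The part of these differences between cells in the results was not tested.

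Of the 10 genes, 6 exceeded 0.5 RPM in at least 1 library and entered the test: *Cdh2*, *Cdh11*, *Cdh13*, *Ctnna1*, *Ctnnb1* and *Ctnnd1*. The other 4 cadherins were not detectable at this depth. *Cdh6*, a type II cadherin, was listed at 0 in all 10 libraries. *Cdh3*, which encodes P-cadherin, was above 0 in 3 libraries at no more than 0.119 RPM, the value of 1 read. *Cdh10* reached 0.109 RPM, again 1 read, in reaggregate 3. *Cdh4*, which encodes R-cadherin, reached 0.272 RPM, or 2 reads, in reaggregate 2 and was at most 0.000302 RPM elsewhere, a value far under 1 read, possible where reads had been divided among genes. No fold change is given for these genes.

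Reaggregates had higher levels of all 3 expressed cadherins and of *Ctnnb1* than flat cultures, whereas *Ctnna1* and *Ctnnd1* did not pass the test. Of the 6 genes tested, 4 were higher at a limma adjusted p of at most 0.05, all at least 2-fold, and 0 were lower, with 0 lower at an unadjusted p of at most 0.05. Over all 16933 genes tested, 13.6% were higher and 15.7% lower by the same threshold, and 7.32% were higher and 6.53% lower with a change of at least 2-fold. In each of the 4 genes every reaggregate exceeded every flat culture, as was the case for 7.8% of all genes tested. With consecutive reaggregates averaged, as 3 samples against 4, only *Ctnnb1* kept an adjusted p of at most 0.05, where 1.99% of all genes were higher and 2.68% lower. The exact permutation test on these averages, added after the values were seen, has 35 assignments and a smallest p of 0.0286, which *Ctnnb1* had, and gave 0.0571 for *Cdh11* and for *Cdh13*, 0.171 for *Cdh2*, 0.429 for *Ctnnd1* and a larger p for *Ctnna1*. Changes are given as log2 fold changes of RPM + 0.5, a scale on which weakly expressed genes appear to change less than they do.

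*Cdh11* encodes OB-cadherin, a type II cadherin of mesenchymal cells first described in osteoblasts. It is listed as ENSMUSG00000031673 and lies on the minus strand of chromosome 8 from 105156895 to 105309011 (NCBIM37, the assembly also called mm9). Reaggregates 1 to 6 held 688, 655, 884, 899, 575 and 594 RPM, and flat cultures 1 to 4 held 145, 35.7, 307 and 25.7 RPM. The lowest reaggregate was above the highest flat culture, and both flat cultures of the de Bruijn label were below both others. Reaggregates averaged 716 ± 142 RPM (SD, n = 6), and flat cultures averaged 128 ± 131 RPM (SD, n = 4). The log2 fold change was 3.13, with an SE of 0.572 and a limma adjusted p of 0.003058. An exact permutation test over the 210 assignments of libraries gave a two-sided p of 0.00476, the smallest that 6 against 4 allow. With consecutive reaggregates averaged the log2 fold change was 3.13 and the limma adjusted p was 0.06028, and with only reaggregates without or with IL-3 it was 0.05542 and 0.05976. Over the alternatives the adjusted p ranged from 5.121e-07, against the de Bruijn label, to 0.07553, with reaggregates averaged and only flat cultures without a laboratory name.

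*Cdh2* encodes N-cadherin, the type I cadherin of neural and mesenchymal cells. It is listed as ENSMUSG00000024304 and lies on the minus strand of chromosome 18 from 16747386 to 16967755. Reaggregates 1 to 6 had 96.4, 93.5, 130, 139, 88.4 and 95.9 RPM. Flat cultures 1 and 3 had 44.4 and 70.3 RPM, and flat cultures 2 and 4 had 0.239 and 0.365 RPM. *Cdh2* was thus present in every reaggregate and in the flat cultures without a laboratory name, and was at about 2 and 3 reads in the flat cultures of the de Bruijn label. The mean in reaggregates was 107 ± 21.5 RPM (SD, n = 6), 357 times the level over both of those flat cultures, with a 95% exact Poisson interval from 153 to 1100 times for the counting error of their 5 reads. The log2 fold change against all 4 flat cultures was 3.98 (SE 1.18, limma adjusted p = 0.02691). That call was lost without reaggregate 4, flat culture 2 or flat culture 4, where the limma adjusted p was 0.05146, 0.07414 and 0.09356, and with consecutive reaggregates averaged, where it was 0.1611. It was also lost without a filter on low values, at 0.08493, with only reaggregates without or with IL-3, at 0.158 and 0.1608, and with averaged reaggregates against flat cultures without a laboratory name, at 0.1586. Over the alternatives the adjusted p ranged from 3.233e-08 to 0.1611 and the log2 fold change from 0.91 to 7.05. The exact permutation p was 0.00476.

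*Cdh13* is listed as ENSMUSG00000031841 and spans chromosome 8 from 120807633 to 121848821 on the plus strand. Reaggregates 1 to 6 stood at 198, 197, 207, 207, 278 and 255 RPM, whereas flat cultures 1 to 4 stood at 102, 83.3, 142 and 49.6 RPM. The groups did not overlap, and reaggregates 5 and 6, the lowest for *Cdh11*, were the highest for *Cdh13*. Mean levels were 224 ± 34.2 RPM (SD, n = 6) in reaggregates against 94.2 ± 38.5 RPM (SD, n = 4), and *Cdh13* changed by 1.33 on the log2 scale, with an SE of 0.246 and a limma adjusted p of 0.003323. With consecutive reaggregates averaged the adjusted p was 0.06176, with only reaggregates without or with IL-3 it was 0.05706 and 0.06606, and the range over the alternatives was 0.0001408 to 0.1267. The exact permutation p was 0.00476.

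*Ctnnb1*, the gene of β-catenin, is listed as ENSMUSG00000006932 and occupies chromosome 9 from 120838334 to 120869625, plus strand. Reaggregates 1 to 6 reached 1150, 1110, 1390, 1390, 1090 and 1130 RPM, where flat cultures 1 to 4 had 453, 544, 524 and 429 RPM. All reaggregates were above all flat cultures, and the flat cultures of the de Bruijn label, at 544 and 429 RPM, lay on both sides of the others. *Ctnnb1* averaged 1210 ± 141 RPM (SD, n = 6) in reaggregates against 488 ± 55.2 RPM (SD, n = 4). Its log2 fold change was 1.31, with an SE of 0.152, a limma adjusted p of 0.0002466 and an exact permutation p of 0.00476. Its adjusted p was 0.01839 with consecutive reaggregates averaged and at most 0.02068 in all other alternatives but 1, averaged reaggregates against flat cultures without a laboratory name, where it was 0.05563. Across all of them the log2 fold change stayed between 1.25 and 1.43. In the annotation 240 bases of its exons are shared with *Ulk4* on the opposite strand, which was at most 7.95 RPM.

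The other catenins differed less between the groups than within them. *Ctnna1*, which encodes αE-catenin (ENSMUSG00000037815, plus strand of chromosome 18 from 35278542 to 35414427), was between 342 and 373 RPM in reaggregates, with a median of 360 RPM, and was at 281, 384, 468 and 270 RPM in flat cultures 1 to 4. Flat cultures lay on both sides of the reaggregates. Its log2 fold change was 0.07, with an SE of 0.165, a limma adjusted p of 0.7626, which was 0.8635 with consecutive reaggregates averaged, and an exact permutation p of 0.714. *Ctnnd1*, which encodes p120-catenin, a stabilizer of cadherins at the membrane (ENSMUSG00000034101, minus strand of chromosome 2 from 84440228 to 84490922), was between 248 and 327 RPM in reaggregates, with a median of 270 RPM. It was at 221, 228, 369 and 124 RPM in flat cultures 1 to 4, so that flat culture 3 exceeded every reaggregate. Its log2 fold change was 0.35, with an SE of 0.243, a limma adjusted p of 0.2815, which was 0.5026 with consecutive reaggregates averaged, and an exact permutation p of 0.229. Without flat culture 3 it was 0.6, with a limma adjusted p of 0.03134, and without flat culture 4 it was 0.08, with one of 0.7814.

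**Figure D1:**
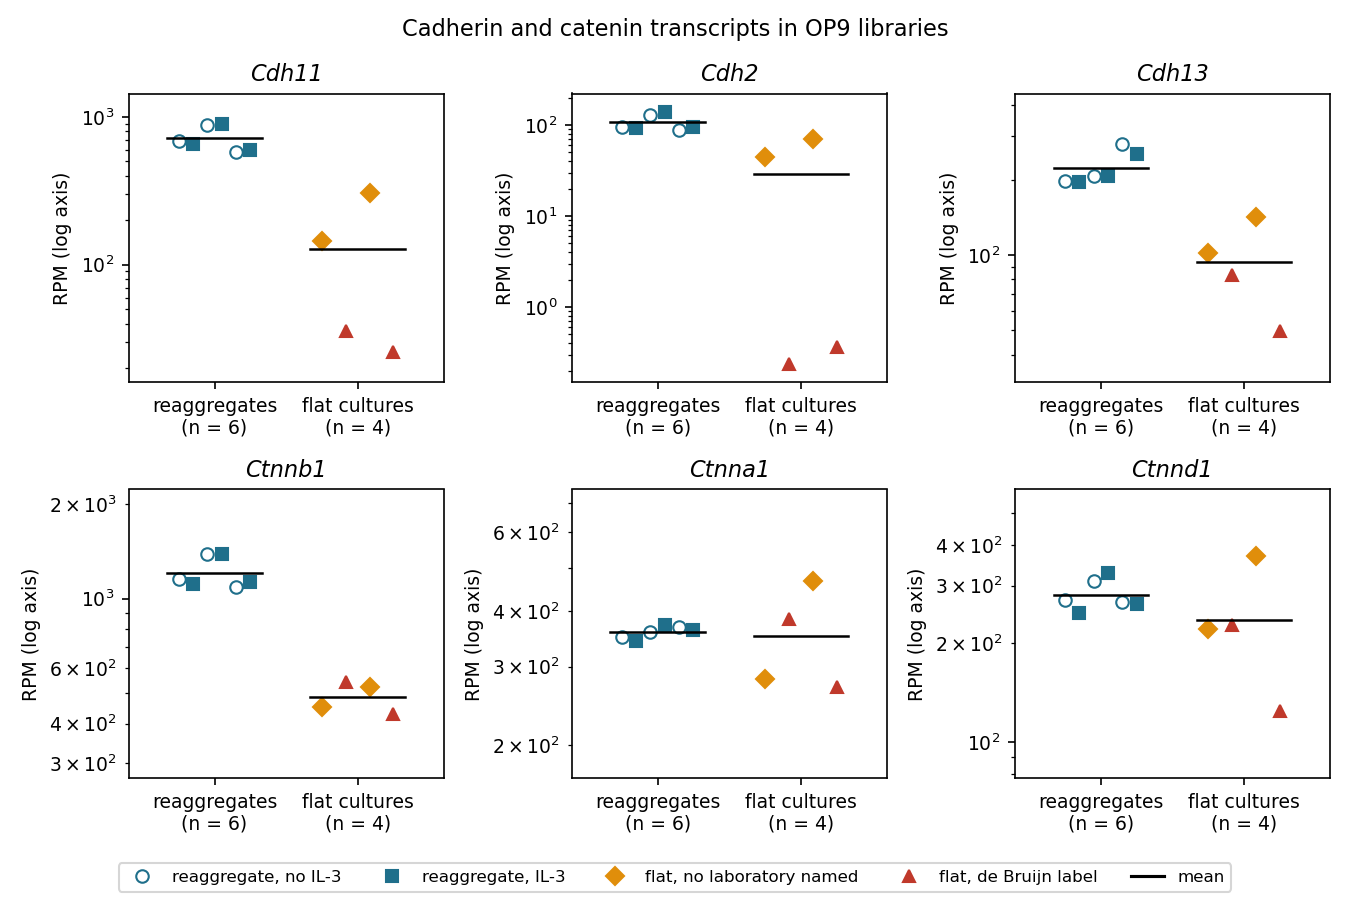
RPM of the 6 expressed genes in every library on log axes, with a panel for each gene, symbols for IL-3 and for the laboratory label, and lines at the group means of 6 reaggregates and 4 flat cultures. All reaggregates lie above all flat cultures for *Cdh11*, *Cdh2*, *Cdh13* and *Ctnnb1*, and flat cultures of the de Bruijn label are at 0.239 and 0.365 RPM for *Cdh2*.

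The changes of *Cdh2* and *Cdh11* differed between the kinds of flat culture, whereas in the test of the flat cultures alone such a difference did not pass for *Cdh13* or *Ctnnb1*. Against the flat cultures without a laboratory name, 4 of the 6 genes were higher and 0 lower at a limma adjusted p of at most 0.05, where 6.6% of all genes tested were higher and 11.2% lower. The log2 fold change was 1.74 for *Cdh11*, 0.91 for *Cdh2*, 0.88 for *Cdh13* and 1.3 for *Ctnnb1*, with limma adjusted p of 0.005448, 0.03018, 0.0147 and 0.001549, and 6 of 6 reaggregates were above both flat cultures for each gene, as was the case for 11.2% of all genes tested. With consecutive reaggregates averaged, a setting added after the values were seen, 0 of these 4 kept an adjusted p of at most 0.05 against 2 flat cultures, although all 4 had an unadjusted p of at most 0.05, and 0.726% of all genes were higher and 2.36% lower. With the de Bruijn label as the comparison, 5 of the 6 genes were higher, *Ctnnd1* among them, where 25.3% of all genes tested were higher and 21.6% lower. The log2 fold change was 4.52 for *Cdh11*, 7.05 for *Cdh2*, 1.78 for *Cdh13*, 1.32 for *Ctnnb1* and 0.73 for *Ctnnd1*. With consecutive reaggregates averaged, again added after the values were seen, 4 of the 6 genes passed, and *Ctnnd1*, with a limma adjusted p of 0.07344, did not, where 19.7% of all genes were higher and 15% lower. These comparisons share the reaggregates and are not independent of each other.

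Between the flat cultures themselves, *Cdh2* and *Cdh11* were lower under the de Bruijn label. The log2 difference, de Bruijn label minus no laboratory name, was −6.14 for *Cdh2* (SE 0.4, limma adjusted p = 0.005258) and −2.78 for *Cdh11* (SE 0.433, limma adjusted p = 0.02975), with both cultures of the label below both others, as in 34.1% of all genes tested. Without a filter on low values *Cdh11* did not pass (limma adjusted p = 0.1953) and *Cdh2* did (limma adjusted p = 0.04871). *Cdh13*, *Ctnnd1*, *Ctnna1* and *Ctnnb1* differed by −0.9, −0.76, −0.17 and −0.01 and did not pass. Both cultures of the label were below both others for *Cdh13* too, at 83.3 and 49.6 RPM against 102 and 142 RPM. In a fit of all 10 libraries with 3 groups *Cdh13* passed as well, with a limma adjusted p of 0.04192, where 12.5% of all genes were lower and 6.05% higher under the label. Without any 1 flat culture neither *Cdh2* nor *Cdh11* passed, nor did any other gene by limma, while the unadjusted p was at most 0.05 for 1784 to 4137 of them. Of all 16933 genes, 3.87% were lower and 1.82% higher under the label. The flat cultures of the label were also those with the highest summed level of adipocyte markers, and of these *Fabp4* was at 435 and 711 RPM there and at 31.3 and 47.2 RPM in the others. They had the lowest summed level of neural markers, and of these *Tubb3* was at 7.41 and 6.08 RPM there and at 95.9 and 69.6 RPM in the others, whereas *Nes* was at 1.55 and 2.31 RPM there and at most 0.24 RPM in the others. Of the stromal markers *Col3a1* was lower under the label, at 38.8 and 31.5 RPM against 345 and 960 RPM (limma adjusted p = 0.01819), and *Cxcl12* was at 4560 and 3990 RPM against 125 and 662 RPM (limma adjusted p = 0.06101). Of the osteoblast markers *Alpl* was at 0.119 and 0 RPM against 6.33 and 8.98 RPM (limma adjusted p = 0.008356), and *Sp7* was at 0.835 and 0.972 RPM against 0 and 0.12 RPM. *Sp7* exceeded 0.5 RPM only in flat cultures of the label. It thus entered the test through the group where it was high, and no call is given for it. The part of these differences in the levels of *Cdh2* and *Cdh11* was not tested. In RNA from whole cultures, fewer cells that express a gene and less RNA per cell cannot be told apart.

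**Figure D2:**
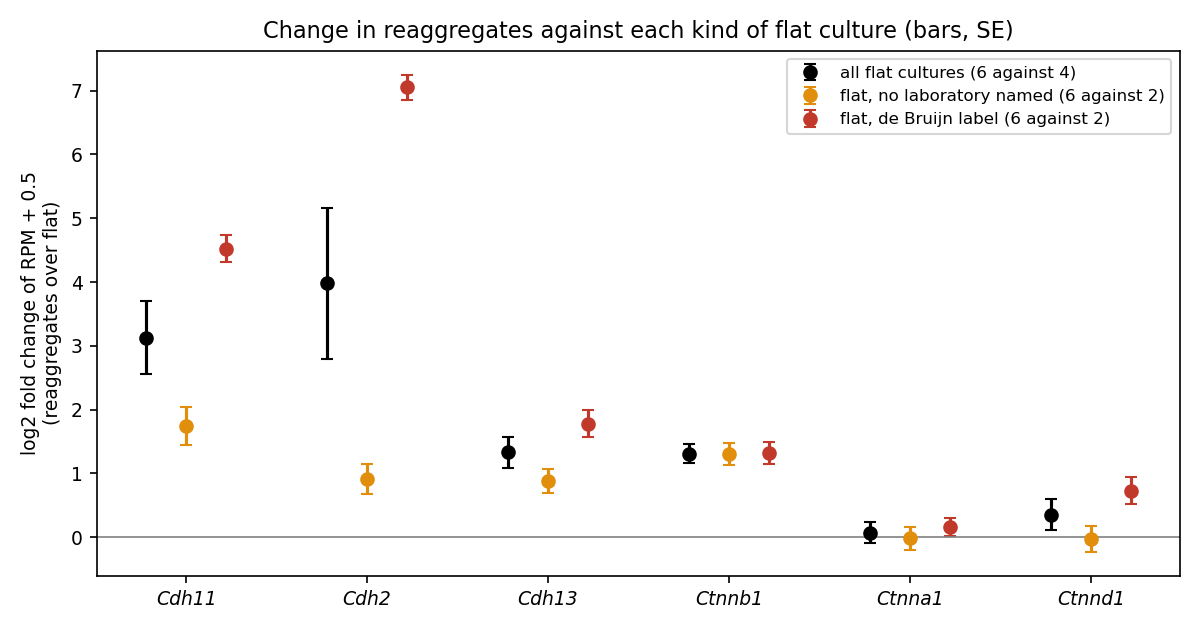
Log2 fold change of RPM + 0.5 in 6 reaggregates over all 4 flat cultures, over the 2 with no laboratory named and over the 2 labelled de Bruijn, with bars for the SE of the limma fit. The 3 values of *Ctnnb1*, 1.31, 1.3 and 1.32, lie together, while those of *Cdh2* run from 0.91 to 7.05.

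No difference with IL-3 was detected in the cadherins and catenins of reaggregates, which does not show that there was none. *Cdh11* was at 716 ± 161 RPM with and 716 ± 156 RPM without IL-3 (SD, n = 3 each), *Cdh2* at 109 ± 25.6 and 105 ± 22.1 RPM, and *Cdh13* at 220 ± 31 and 228 ± 43.8 RPM. *Ctnnb1* was at 1210 ± 156 RPM with and 1210 ± 159 RPM without IL-3. The limma test across all genes gave 0 of the 6 genes an adjusted or an unadjusted p of at most 0.05, and the log2 differences, with minus without IL-3, ranged from −0.04 for *Cdh13* (SE 0.175) to 0.06 for *Cdh2* (SE 0.216). Of all genes tested, 0% passed, and 68 of 16933 had an unadjusted p of at most 0.05. With the 3 pairs of consecutive reaggregates as a block, limma again passed 0 genes, while 564 fell at or under 0.05 before adjustment, and 0 of the 6 cadherins and catenins were among these. In that fit the log2 difference was 0.06 for *Cdh2* (SE 0.0537) and −0.04 for *Cdh13* (SE 0.0481).

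Levels of the cadherins and catenins were compared with each other per length, as RPM per kb of the summed exons of each gene. Marker genes were ranked in RPM, without regard to length. In all 6 reaggregates the order from high to low was *Ctnnb1*, *Cdh11*, *Ctnna1*, *Ctnnd1*, *Cdh13* and *Cdh2*. The means there were 237 ± 27.6, 170 ± 33.7, 97.1 ± 3.14, 38.4 ± 4.17, 20.1 ± 3.07 and 13.3 ± 2.67 RPM per kb (SD, n = 6). In flat cultures *Cdh11* took a lower place. It came after *Ctnnb1* and *Ctnna1* in flat cultures 1 and 3, where its mean was 53.6 RPM per kb, and after *Ctnnd1* as well in flat cultures 2 and 4, where its mean was 7.28 RPM per kb. *Ctnna1* and *Ctnnb1* lay within each other's spread in flat cultures, at 94.8 ± 25.3 and 95.6 ± 10.8 RPM per kb (SD, n = 4), and *Ctnna1* was the higher of them in flat culture 3.

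*Cdh11* had the largest share of the level per kb summed over the 7 cadherins in every library. Its share of the summed level per kb of the 7 cadherins was between 79.2% and 85.8% in reaggregates, with a median of 84.4%, and was 70.1%, 52.9%, 77.2% and 57.6% in flat cultures 1 to 4. *Cdh13* had between 7.45% and 14.5% in reaggregates, 18.6% and 13.5% in flat cultures 1 and 3, and 46.7% and 42% in flat cultures 2 and 4. These shares depend on the annotated exon lengths, 11153 bases for *Cdh13* and 4216 bases for *Cdh11*. In RPM, *Cdh13* exceeded *Cdh11* in flat cultures 2 and 4, at 83.3 and 49.6 RPM against 35.7 and 25.7 RPM. *Cdh2* had between 6.2% and 6.92% in reaggregates and 11.2%, 0.185%, 9.25% and 0.427% in flat cultures 1 to 4. The share of *Cdh2* was thus lower in reaggregates than in flat cultures 1 and 3, although its RPM was higher. The summed level of the 7 cadherins was 203 ± 34.5 RPM per kb (SD, n = 6) in reaggregates, 71.7 on average in flat cultures 1 and 3 and 13.3 in flat cultures 2 and 4.

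**Figure D3:**
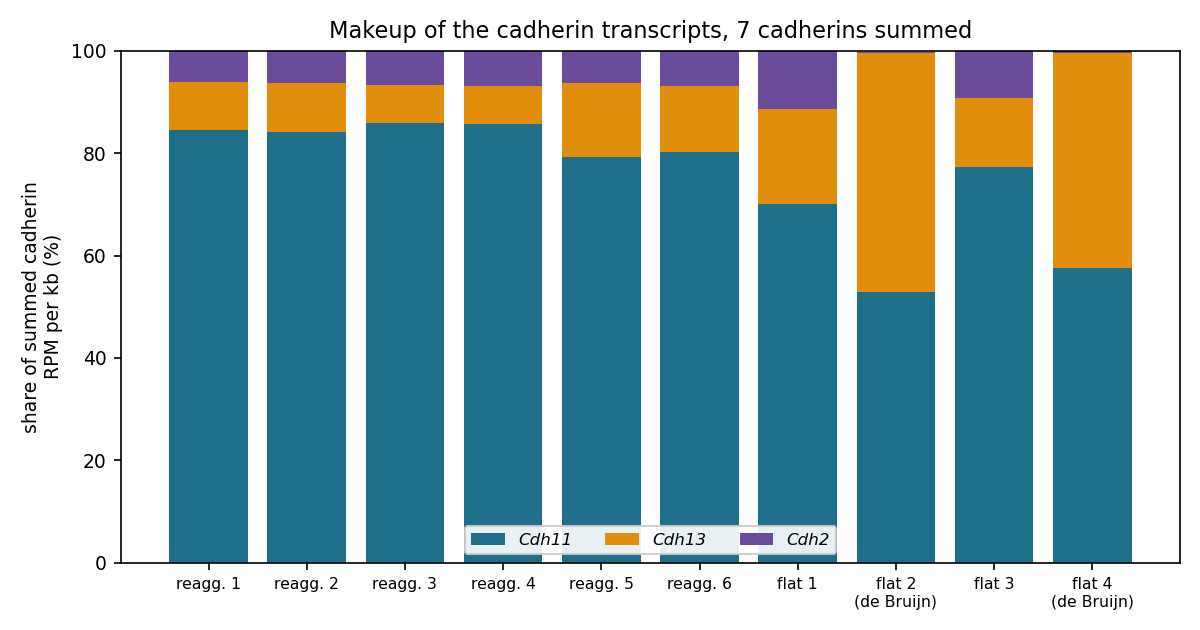
Share of each cadherin in the summed RPM per kb of the 7 cadherins, in percent, as a stacked bar for each library. *Cdh11* holds between 79.2% and 85.8% in reaggregates, and *Cdh13* holds 46.7% and 42% in the flat cultures labelled de Bruijn.

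Catenin transcripts were set against those of the cadherins with a catenin-binding tail, that is all but *Cdh13*. For each unit of summed cadherin level per kb, *Ctnnb1* stood at 1.31 ± 0.116 in reaggregates (SD, n = 6) and at 2.23, 12.5, 1.26 and 13.7 in flat cultures 1 to 4. *Ctnna1* stood at 0.546 ± 0.102 in reaggregates and at 1.9, 12.2, 1.55 and 11.9 in flat cultures. *Ctnnd1* stood at 0.213 ± 0.0237 and at 0.757, 3.65, 0.618 and 2.76. The ratios of *Ctnna1* and *Ctnnd1* were lower in all reaggregates than in all flat cultures, whereas for *Ctnnb1* flat culture 3 lay within the range of reaggregates. These are ratios of transcripts, without a test, and protein was not measured. The cadherin level they are divided by, mostly *Cdh11*, was between 147 and 230 RPM per kb in reaggregates. In flat cultures it was between 6.14 and 81.5 RPM per kb. Since that level itself did not overlap between the groups, the lower ratios are no separate result about catenins.

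Other cadherins were mostly low. Of 15 other classical and related cadherins 6 were tested, 1 was higher and 0 were lower in reaggregates, with a median log2 fold change of −0.28, where over all genes tested 13.6% were higher and 15.7% lower and the median was 0.035. With consecutive reaggregates averaged 0 of them passed, against flat cultures without a laboratory name 0 passed, and against those of the de Bruijn label 1 was higher and 2 were lower. The 2 lower genes, *Cdh18* and *Cdh19*, exceeded 0.5 RPM only in flat cultures of that label. They entered the test through the group where they were high, as did *Cdh15*, which exceeded 0.5 RPM only in reaggregate 5. Nothing is concluded from that count or from the median of the list, which includes these genes. Over all genes tested the shares higher and lower were 1.99% and 2.68% with averaging, 6.6% and 11.2% against flat cultures without a laboratory name, and 25.3% and 21.6% against the de Bruijn label. The gene that passed was *Cdh24*, a type II cadherin. Reaggregates 1 to 6 had 10.8, 11, 15.5, 15.5, 3.25 and 2.34 RPM of it, and flat cultures 1 to 4 had 1.38, 1.79, 6.11 and 1.34 RPM. Reaggregates 5 and 6 were below flat culture 3. *Cdh24* changed by 1.64 on the log2 scale and had a limma adjusted p of 0.04771, a call that was lost in 13 of 25 other settings, where the adjusted p reached 0.4104, and was 0.1487 with consecutive reaggregates averaged. *Cdh1*, the gene of E-cadherin, was at most 0.359 RPM and was listed at 0 in every reaggregate.

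Of 12 other catenins and armadillo proteins of junctions, 7 were tested, 1 was higher and 2 were lower, with a median log2 fold change of 0.18, beside 13.6% higher, 15.7% lower and a median of 0.035 over all genes, and 0 passed with consecutive reaggregates averaged. Against flat cultures without a laboratory name 1 was higher and 1 lower, and against those of the de Bruijn label 5 were higher and 1 lower. Of all genes, 6.6% were higher and 11.2% lower in the former comparison and 25.3% and 21.6% in the latter, and 1.99% and 2.68% with averaging. *Jup* encodes plakoglobin, the close relative of β-catenin. It averaged 7.11 ± 0.937 RPM (SD, n = 6) in reaggregates and was at 1.96, 0.358, 3.23 and 0.364 RPM in flat cultures 1 to 4, so that, like *Cdh2* and *Cdh11*, it was lowest under the de Bruijn label. *Jup* changed by 2.23 on the log2 scale (limma adjusted p = 0.002679), by 1.32 against flat cultures without a laboratory name (limma adjusted p = 0.006518), and had an adjusted p of 0.05572 with consecutive reaggregates averaged. Its values under the de Bruijn label were at about the floor of 3 reads. With 0.1 or 1 RPM added in place of 0.5, its log2 fold change was 2.7 or 1.88. The call of *Jup* was lost in 4 of 25 other settings. *Pkp2*, which encodes a desmosomal plakophilin, was at 42.6 and 41.3 RPM under the de Bruijn label, at 10.6 and 10.9 RPM without it, and at 7.84 ± 3.1 RPM (SD, n = 6) in reaggregates. *Pkp2* changed by −1.48 on the log2 scale (limma adjusted p = 0.03172), and by −0.52 with an adjusted p of 0.3666 against flat cultures without a laboratory name. That call was lost in 13 of 25 other settings, with an adjusted p of 0.1548 when averaged. The other lower gene, *Pkp4*, changed by −0.98 on the log2 scale (limma adjusted p = 0.01936, and 0.1362 when averaged). Its change was −1.52 against flat cultures without a laboratory name (limma adjusted p = 0.001233). Against those of the de Bruijn label it was −0.44 and did not pass.

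For genes that link cadherins to actin, and nectins, the 32 listed symbols stand for 26 genes, of which 25 were tested. In reaggregates 3 were higher and 3 lower, with a median log2 fold change of −0.01, beside 13.6% higher, 15.7% lower and a median of 0.035 over all genes. When consecutive reaggregates were averaged 1 was higher and 0 lower. Against flat cultures without a laboratory name 2 were higher and 1 lower, and against those of the de Bruijn label 7 were higher and 10 lower. Of all genes, 6.6% were higher and 11.2% lower in the former comparison and 25.3% and 21.6% in the latter, and 1.99% and 2.68% with averaging. *Lima1* encodes the actin-binding protein EPLIN. It was higher in reaggregates, at 824 ± 359 RPM (SD, n = 6), than in flat cultures, at 266 ± 75.5 RPM (SD, n = 4). The log2 fold change of *Lima1* was 1.56 (limma adjusted p = 0.004388), and its adjusted p was 0.0456 against flat cultures without a laboratory name and 0.04436 with consecutive reaggregates averaged. *Plekha7*, whose product binds p120-catenin at junctions, was lower in reaggregates, at 1.36 ± 0.824 RPM (SD, n = 6), than in flat cultures, at 5.23 ± 1.8 RPM (SD, n = 4). It changed by −1.67 on the log2 scale (limma adjusted p = 0.005164), with an adjusted p of 0.05211 against flat cultures without a laboratory name and 0.05572 with consecutive reaggregates averaged, and lost its call in 4 of 25 other settings.

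*Shroom3*, a regulator of apical constriction, and *Pdlim1*, a binding partner of α-actinin, were highest in the flat cultures of the de Bruijn label. There *Shroom3* was at 22.5 and 16.8 RPM and *Pdlim1* at 40.9 and 30 RPM, whereas neither exceeded 2.62 RPM in the other flat cultures. *Shroom3* was at 0.385, 0.272, 0.109, 0, 0.327 and 0.534 RPM in reaggregates 1 to 6, above the floor of 3 whole reads in reaggregate 6 alone, so that its log2 fold change rests on few reads and on the added 0.5 RPM. That log2 fold change of −2.97 (limma adjusted p = 0.01106) became −1.21 (limma adjusted p = 0.03323) against flat cultures without a laboratory name. The call of *Shroom3* was lost in 4 of 25 other settings, with an adjusted p of 0.1049 when consecutive reaggregates were averaged. *Pdlim1* changed by −2.61 on the log2 scale (limma adjusted p = 0.03275), and by −0.7 (limma adjusted p = 0.3507) against flat cultures without a laboratory name. The call of *Pdlim1* was lost in 14 of 25 other settings, with an adjusted p of 0.1661 when averaged.

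Of 23 genes for shedding, phosphorylation state and turnover of cadherins 22 were found by symbol and tested, and 5 were higher and 2 lower, with a median log2 fold change of 0.38, beside 13.6% higher, 15.7% lower and a median of 0.035 over all genes. Averaging consecutive reaggregates gave 1 higher and 0 lower. Against flat cultures without a laboratory name 1 was higher and 1 lower, and against those of the de Bruijn label 7 were higher and 2 lower. Of all genes, 6.6% were higher and 11.2% lower in the former comparison and 25.3% and 21.6% in the latter, and 1.99% and 2.68% with averaging. *Ptpn1* encodes the phosphatase PTP1B, a partner of N-cadherin. Reaggregates had 157 ± 51.2 RPM of it (SD, n = 6) and flat cultures 50.9 ± 21.2 RPM (SD, n = 4). *Ptpn1* changed by 1.64 on the log2 scale (limma adjusted p = 0.002283), with an adjusted p of 0.02947 against flat cultures without a laboratory name and 0.03932 with consecutive reaggregates averaged. *Adam10*, a sheddase of N-cadherin, averaged 248 ± 28.3 RPM (SD, n = 6) and 170 ± 34.9 RPM (SD, n = 4). Its log2 fold change of 0.56 (limma adjusted p = 0.02511) became 0.38 (limma adjusted p = 0.09829) against flat cultures without a laboratory name, and its call was lost in 9 of 25 other settings, with an adjusted p of 0.1611 when averaged. *Ptprf*, which encodes the receptor phosphatase LAR, was at 32.7 and 20.3 RPM under the de Bruijn label, at 5.31 and 6.6 RPM without it and at 3.48 ± 2.17 RPM (SD, n = 6) in reaggregates. Its log2 fold change was −2 (limma adjusted p = 0.03772), and −0.98 (limma adjusted p = 0.3701) against flat cultures without a laboratory name, and the call was lost in 12 of 25 other settings, with an adjusted p of 0.1382 when averaged. *Fer*, listed under its older name *Fert2* and outside these counts, did not pass, with a log2 fold change of −0.33 (limma adjusted p = 0.06806, and 0.2644 when averaged).

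Of 27 genes of the β-catenin destruction complex and of TCF and its partners, listed as 28 symbols, 22 were tested, 7 were higher and 0 lower, with a median log2 fold change of 0.62, beside 13.6% higher, 15.7% lower and a median of 0.035 over all genes. Against flat cultures without a laboratory name 3 were higher and 0 lower, against those of the de Bruijn label 10 were higher and 2 lower, and with consecutive reaggregates averaged 0 passed. Of all genes, 6.6%, 25.3% and 1.99% were higher in these 3 comparisons and 11.2%, 21.6% and 2.68% lower. Of the 2 genes lower against the de Bruijn label, *Tcf7* exceeded 0.5 RPM only in flat cultures of that label. It thus entered the test through the group where it was high. *Tle1*, a corepressor of TCF, averaged 42.7 ± 8.08 RPM (SD, n = 6) in reaggregates against 20.2 ± 5.82 RPM (SD, n = 4). It changed by 1.08 on the log2 scale (limma adjusted p = 0.004149), with an adjusted p of 0.06394 when consecutive reaggregates were averaged. *Pygo1*, a coactivator of β-catenin, averaged 28.5 ± 5.01 RPM (SD, n = 6) against 14.2 ± 4.34 RPM (SD, n = 4). It changed by 1.01 (limma adjusted p = 0.006744), with an adjusted p of 0.08163 when averaged. *Znrf3*, whose product is a ubiquitin ligase that removes Wnt receptors, averaged 11.4 ± 4.54 RPM (SD, n = 6) against 4.98 ± 1.68 RPM (SD, n = 4). Its change of 1.06 (limma adjusted p = 0.03193) lost its call in 13 of 25 other settings, where the adjusted p reached 0.3269, and was 0.1291 when averaged. The common Wnt target *Axin2* was at most 0.257 RPM, *Lef1* 0.243 RPM, *Lgr5* 0.272 RPM and *Rnf43* 0.257 RPM in any library, all under the floor of 3 reads, and *Sp5* was listed at 0 throughout. Other Wnt targets exceeded the floor. *Nkd1* reached 1.15 RPM in reaggregate 4, and *Nkd2* was at 3.21 and 3 RPM in reaggregates 1 and 2, at 0 in 3 and 4, at 0.868 and 0.956 RPM in 5 and 6 and at most 0.24 RPM in flat cultures. Neither passed, with limma adjusted p of 0.4324 and 0.1177, and of 0.4607 and 0.207 with consecutive reaggregates averaged.

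Across the 10 libraries, the profiles most like those of *Ctnnb1*, *Cdh11* and *Ctnna1*, which had the highest mean RPM and the highest mean RPM per kb of the 10 genes, were sought among the genes tested with a mean of at least 5 RPM, 11661 in all. Pearson's r of log2(RPM + 0.5) is given as a description, since the libraries share groups and sources of cells. *Ctnnb1* was most like *Zkscan1*, *Rasa3* and *Cmtm3*, with r of 0.995, 0.991 and 0.989, and these genes, like *Ctnnb1*, differed little between the kinds of flat culture. *Rasa3* averaged 284 ± 29.3 RPM in reaggregates (SD, n = 6), with flat cultures at 126 ± 18.5 RPM (SD, n = 4). *Cdh11* was most like *Il17rd*, *Amot* and *Ogn*, with r of 0.996, 0.996 and 0.995. *Amot*, which encodes the junction-associated angiomotin, was at 62.3, 25.6, 117 and 18.3 RPM in flat cultures 1 to 4, in the same order as *Cdh11*, and between 181 and 218 RPM in reaggregates. *Ctnna1* was most like *B4galt6*, *Rprd1b* and *Fryl*, with r of 0.923, 0.921 and 0.916.

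Promoter sequence was looked up for the 10 genes, and 4 matched by symbol in the RefSeq table of mouse promoters (GRCm38.p6, a later assembly than that of the gene positions above), *Cdh6*, *Cdh10*, *Ctnnb1* and *Ctnnd1*. The 250 bases before a start are shown for all 4, of which the catenins were expressed and the cadherins were not detectable. For *Ctnnb1* and *Ctnnd1* 2 starts each are listed, and a single window of each gene is shown and counted. Capitals mark CCAAT and GGGCGG on either strand, which are held by 33.8% and 32.7% of 32851 promoter windows of this length.
Ctnnb1, chr9:120933150-120933399, plus strand: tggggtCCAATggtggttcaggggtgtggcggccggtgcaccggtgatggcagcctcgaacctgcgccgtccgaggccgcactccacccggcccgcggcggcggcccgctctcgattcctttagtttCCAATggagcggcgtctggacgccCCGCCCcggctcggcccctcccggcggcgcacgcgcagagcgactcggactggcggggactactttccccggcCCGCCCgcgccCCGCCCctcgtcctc
Ctnnd1, chr2:84658978-84659227, minus strand: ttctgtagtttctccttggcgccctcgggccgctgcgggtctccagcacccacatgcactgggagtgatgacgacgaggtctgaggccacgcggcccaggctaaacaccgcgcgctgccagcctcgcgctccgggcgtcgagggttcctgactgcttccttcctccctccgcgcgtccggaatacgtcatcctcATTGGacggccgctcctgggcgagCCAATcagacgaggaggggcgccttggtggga
Cdh10, chr15:18820079-18820328, plus strand: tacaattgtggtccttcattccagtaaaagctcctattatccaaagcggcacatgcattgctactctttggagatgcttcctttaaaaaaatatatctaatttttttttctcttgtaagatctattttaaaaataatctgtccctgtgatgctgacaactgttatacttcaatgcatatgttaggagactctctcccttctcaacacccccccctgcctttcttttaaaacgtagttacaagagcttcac
Cdh6, chr15:13173676-13173925, minus strand: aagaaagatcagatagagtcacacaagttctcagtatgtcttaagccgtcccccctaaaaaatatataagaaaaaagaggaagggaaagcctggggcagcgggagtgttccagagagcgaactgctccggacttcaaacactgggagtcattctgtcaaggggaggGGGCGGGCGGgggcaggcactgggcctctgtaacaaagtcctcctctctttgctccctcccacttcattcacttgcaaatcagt
The window of *Ctnnb1* holds 35 CpG and 2 CCAAT and 3 GGGCGG matches, that of *Ctnnd1* 26 CpG, 2 CCAAT and 0 GGGCGG matches, that of *Cdh10* 2 CpG and neither motif, and that of *Cdh6* 6 CpG, 0 CCAAT and 2 GGGCGG matches, where the median window holds 6 CpG. The motif CTTTGAT, bound by TCF factors, was searched on both strands and is in none of the 4 windows, and is in 3.21% of all windows. The E-box CANNTG, in 66.2% of all windows, has 0, 1, 4 and 1 matches in the order shown. A match is a description of letters in these windows and not of binding.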

How the data were processed

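RNA was measured in 6 reaggregates and 4 flat cultures of OP9. The authors aligned reads with TopHat 1.2.0 to NCBIM37 (mm9), assigned them to Ensembl genes, divided reads that mapped to several places, and deposited RPM values per gene and library. Per the file headers, other columns hold the authors' fold change and adjusted p, and these were not used. RPM are not counts, and since reads had been divided no test on counts was run.

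The test was limma 3.58.1, run in R 4.3.3 on log2(RPM + 0.5) for genes that exceeded 0.5 RPM in 1 library or more (linear model without covariates, empirical Bayes with a mean-variance trend, Benjamini-Hochberg adjustment over 16933 genes). Comparisons were reaggregates against flat cultures, IL-3 within reaggregates and the laboratory label within flat cultures. Listed symbols absent from the table were looked up by older names in RefSeq. The code was tested on simulated data. The 6 expressed cadherins and catenins also had an exact permutation test. Lengths and positions came from GENCODE M1 (Ensembl 65), a later release than the authors used. The genes named are all 10 and up to 4 per list that passed with at least a 2-fold change. The 3 most like each of the 3 with the highest mean RPM are also named. *Adam10*, *Axin2*, *Lef1*, *Lgr5*, *Sp5*, *Rnf43*, *Nkd1*, *Nkd2*, *Cdh1*, *Ulk4*, *Fer*, *Pkp4* and single markers were named after their values were seen. The genes and lists were chosen with earlier results of these data known. Alternatives changed the pseudocount, filter, scaling, trend, libraries, averaging and block, and for genes named from lists they were chosen after seeing the data. Whether libraries are separate cultures is not labelled, so p-values measure the spread between these libraries.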

Additional observations from a re-analysis of the deposited data

Results flagged for a closer look

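Among 27 genes named with their values in both groups, 54 groups of values were examined for a library far from the rest, and 1 was found. Chance gives 2.7 where libraries are independent, which the labels do not establish. Libraries that are alike within a group can hide each other from this search, so nothing is concluded from the low number. *Cdh24* was at 6.11 RPM in flat culture 3, and the nearest other flat culture was at 1.79 RPM. The cause was not tested.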

How the results depend on the processing

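In these settings the test called 2299 genes higher and 2665 lower in reaggregates, and 4 of the 6 cadherins and catenins tested higher. Against flat cultures without a laboratory name 1117 genes were higher, and against those of the de Bruijn label 4290. With only reaggregates without IL-3, 361 genes were higher and 508 lower, with only those with IL-3, 287 and 373, and with consecutive reaggregates averaged, 337 and 453. In each of these 3 settings, which have fewer samples, 1 of the 6 genes was higher, *Ctnnb1*. Averaged reaggregates against flat cultures without a laboratory name, added after the values were seen, gave 123 genes higher, 399 lower and 0 of the 6 genes higher, all 4 named above having an unadjusted limma p of at most 0.05. Against those of the de Bruijn label, also added after the values were seen, averaged reaggregates gave 3339 genes higher, 2546 lower and 4 of the 6 genes higher. Leaving out each library gave between 1268 and 3743 genes higher, the highest without flat culture 3 and the lowest without flat culture 4, and between 1630 and 3425 lower.

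Same-numbered reaggregates and flat cultures share only a number, and their deviations from group means correlated with r of −0.04, −0.21, 0.07 and 0.15. With the number as a block, 2418 genes were higher, 1754 lower and 4 of the 6 genes higher. *Ctnna1* turned to −0.02 (log2) against flat cultures without a laboratory name and without flat culture 1, and to −0.04 without flat culture 4. *Ctnnd1* turned to −0.03 against flat cultures without a laboratory name. With reaggregates also averaged these values were −0.02 and −0.03. The highest value of *Ctnna1* with 1 library left out was 0.22, without flat culture 3. None of these values passed. Of the genes named from lists, *Lima1* and *Ptpn1* lost their call in 1 of 25 settings, averaged reaggregates against flat cultures without a laboratory name.

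No setting called any of the 6 genes for IL-3, and without a filter 22 genes passed over the table, against 0 with it, beside 68 at an unadjusted p of 0.05 or less, and 564 with the pairs as a block. For the laboratory label 965 genes passed, 429 without a filter, 1763 after quantile normalization and 3140 in a fit of all 10 libraries. Without any 1 flat culture 0 passed by limma, although 1784 to 4137 had an unadjusted p of at most 0.05, with the lone culture assumed to vary like the others. Of the 6 genes, 2 passed for the label, 3 in the fit of all 10 libraries, *Cdh13* being added, 1 without a filter, where *Cdh11* did not, and 0 without any 1 flat culture. The causes were not tested. Depth limits *Cdh3*, *Cdh4*, *Cdh6* and *Cdh10*, which were under 3 reads.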
